A study of Mus musculus with 12 samples.

Results

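The spliceosome genes described here are the 53 mouse genes whose array probe sets carry a single symbol of the families Prpf, Snrnp, Snrp, Sf3a, Sf3b, U2af and Lsm, out of 19937 genes with a single symbol. Each gene is represented by its probe set with the highest mean, and the rule uses names alone, though it was set with earlier results of these data known. All 53 passed the filter on dim genes, a mean log2 value of 6.003, and their means ran from 7.27 to 12.3. Snrnp40, Snrpf and Snrpn were not analysed here because no probe set names them alone.

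RNA levels were read on single-colour whole-transcript arrays in clone 483 of a T cell acute lymphoblastic leukaemia from mice of strain C57BL6, so all groups come from 1 clone. The cells were treated for 2 h with 100 µM 4EGI-1, a compound that keeps the cap-binding protein eIF4E from binding its scaffold eIF4G, or were controls, which the labels call untreated and the protocol describes as given the solvent DMSO. Each treatment was sampled as polysomal RNA, pooled from the polysome fractions of a sucrose gradient, and as reference RNA, called cytoplasmic in the labels and total in the sample titles. This gave 4 groups of 3 arrays: cytoplasmic control, cytoplasmic 4EGI-1, polysomal control and polysomal 4EGI-1. The replicates are called biological in the design text, which says no more on how separate the cultures were, so p-values reflect only how far these arrays spread, which may be in part technical. The reference RNA was taken from cells with Trizol and may hold nuclear RNA.

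The spliceosome removes introns from pre-mRNA. It is built from small nuclear ribonucleoproteins (snRNPs), each a small nuclear RNA with a ring of Sm proteins (LSm proteins in the case of U6) and particle-specific proteins. U1 recognises the start of the intron, and U2, with its SF3a and SF3b complexes and the factor U2AF, recognises the branch point and the intron's end. U4/U6 and U5 join as the tri-snRNP, and PRPF8 of U5 lies at the catalytic centre. The subunits differ widely in size: PRPF8, the helicase SNRNP200 and the SF3b scaffold SF3B1 are large proteins, while Sm and LSm proteins are among the smallest.

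4EGI-1 is directed at cap-dependent initiation, so the first bases of the mRNA are shown for members on which the results turn. The windows come from RefSeq (GRCm38.p6) and hold 15 bases before the listed start and 15 from it, with the first 5 transcribed bases in capitals. The first 6 genes rose in polysomal RNA with 4EGI-1 and the last 3 fell.
Prpf8, chr11:75486762-75486791, + strand: atctcggcgtctattGGATGagcttctgag
Snrnp200, chr2:127208371-127208400, + strand: ccgtttcttttctccGTCCCttacgttcgt
Prpf6, chr2:181601304-181601333, + strand: ctaggtgggcggggcTTTCCgtgacccagc
Sf3b1, chr1:55027464-55027493, - strand: gaagtacgtgctacaGTGCGgcgcgcgctc
Sf3b3, chr8:110846789-110846818, - strand: agatacctttttcccGTCGCgcggcacccg
Sf3a1, chr11:4160339-4160368, + strand: gggcgggaccggaagTGCTCccgcggcttc
Lsm3, chr6:91516020-91516049, + strand: gttcccgcgagaggtGGAAAgggcgcagcg
Snrpe, chr1:133610266-133610295, - strand: ttccgtttccgggtcTTGCTtccggaagtc
Snrnp27, chr6:86684477-86684506, - strand: gtcggaggaggaggaGGAGGactccgatgg
Terminal oligopyrimidine (TOP) mRNAs begin with a C and a run of pyrimidines. A start of this kind, C and then 4 pyrimidines on the transcribed strand, was at none of the listed starts of the 44 members that the table holds. It was found in 305 of the 10491 tested genes with a listed start, or 2.91%. Prpf6, whose first 5 bases are all pyrimidines, begins with a T. A match or its lack describes only these letters at the listed start.

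Array medians lay between 6.40 and 6.56, and no arrays held identical values. The median gene had a standard deviation (SD) of 0.133 and 0.121 in the cytoplasmic control and 4EGI-1 groups, against 0.0745 and 0.0761 in the polysomal groups, and the members spread alike (0.131, 0.134, 0.0740 and 0.0642). All 11 T cell markers measured were above the filter; 2 of them fell in cytoplasmic and 3 in polysomal RNA with 4EGI-1, and 0 rose in the test. Of the markers of other cell types, 2 of 4 for B cells, 2 of 6 for myeloid cells, 1 of 1 for erythroid cells and 3 of 4 for stroma were above it, none over a mean of 7.21. The markers Ms4a1, Cd79a, Lyz2, Cd14, Csf1r, Adgre1 and Cdh5 were below the filter. Pax5 (mean 6.67), Itgam (6.74), Alas2 (6.74) and Pdgfrb (7.21) were above it and also above the lowest T cell marker, Cd5 (6.61). The median T cell marker had a mean of 10.18. In cytoplasmic RNA 1 myeloid marker rose and 1 stromal marker fell, and none of the markers of other cell types passed in polysomal RNA. All arrays were scaled alike, so each change is relative to the other genes and the total amount of polysomal RNA is not measured.

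The question put to polysomal RNA was which members gain or lose presence on polysomes when cells are given 4EGI-1. With 4EGI-1, 9 rose, 17 fell and 27 did not pass (limma, adjusted p under 0.05 over 13180 genes), where 25.2% of all genes passed, 13% rising and 12.1% falling. The genes that rose encode the U5 proteins Prpf8, Snrnp200 and Prpf6, the U2 proteins Sf3b1, Sf3b3 and Sf3a1, the U2AF subunit U2af1, and Prpf3 and Snrnp48. The genes that fell include 10 of the 14 Sm and LSm ring genes measured. The median member changed by -0.17 on the log2 scale, against -0.03 over all genes.

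**Figure D1:**
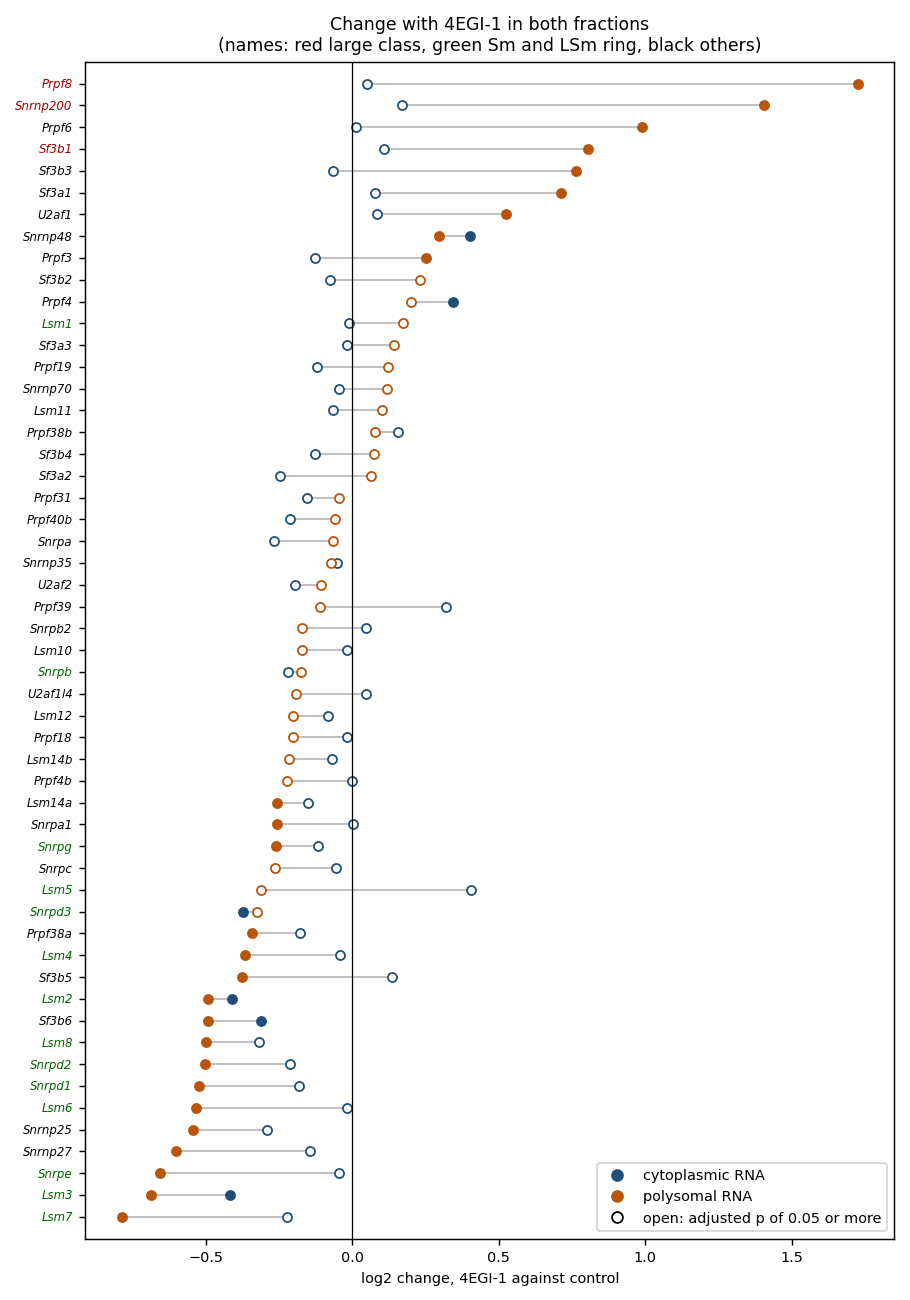
Change of each of the 53 members with 4EGI-1 (x axis, log2 change against control) in cytoplasmic RNA (blue) and polysomal RNA (orange), ordered by the polysomal change; filled points passed at an adjusted p under 0.05 and open points did not. Polysomal changes run from -0.78 for Lsm7 to 1.72 for Prpf8, and most cytoplasmic points lie near 0.

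All 3 U5 members, Prpf8, Snrnp200 and Prpf6, rose in polysomal RNA. Prpf8, the scaffold of the catalytic centre, read 9.70, 9.72 and 9.41 in the polysomal control arrays and 11.38, 11.19 and 11.42 in the polysomal 4EGI-1 arrays, on the log2 scale of the deposited values. Its cytoplasmic arrays read 11.73, 11.49 and 11.73 in control and 11.62, 11.63 and 11.86 with 4EGI-1. The polysomal groups lay far apart, whereas the cytoplasmic groups overlapped. Prpf8 rose by 1.72 ± 0.11 (standard error (SE) of the limma fit, n = 3 arrays per group) in polysomal RNA, a 3.31-fold change (limma, adjusted p = 9.87e-08). Its cytoplasmic change of 0.05 ± 0.11 did not pass (limma, adjusted p = 0.791). Each SE uses 1 spread per gene shared by all 12 arrays. It is therefore equal in both fractions, though the median gene spread more in the cytoplasmic groups.

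Snrnp200, the helicase that unwinds U4 from U6, read 8.63, 8.77 and 8.67 in polysomal control and 10.14, 10.07 and 10.08 in polysomal 4EGI-1 arrays. Its cytoplasmic values were 10.69, 10.52 and 10.55 in control and 10.78, 10.66 and 10.83 with 4EGI-1. Again the polysomal groups did not overlap and the cytoplasmic groups did. Its polysomal change was 1.41 ± 0.08, or 2.65-fold (limma, adjusted p = 3.4e-08), beside a cytoplasmic change of 0.17 ± 0.08 that did not pass (limma, adjusted p = 0.155). Polysomal groups without overlap were common among the members, so lack of overlap alone does not set a gene apart. Those of Prpf19, Snrpb, Lsm10, Lsm12, Prpf38b and U2af1l4 did not overlap either, and none of these genes passed in polysomal RNA. Other members that did not pass, such as Lsm1 and Prpf31, had overlapping polysomal groups.

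Prpf6, which bridges U5 and U4/U6 in the tri-snRNP, read 8.72, 8.78 and 8.84 in polysomal control and 9.73, 9.79 and 9.79 in polysomal 4EGI-1 arrays. Cytoplasmic values were 9.93, 9.68 and 10.07 in control and 9.88, 9.82 and 10.03 with 4EGI-1, which overlapped. The polysomal rise was 0.99 ± 0.10, or 1.98-fold (limma, adjusted p = 3.86e-06), and the cytoplasmic change of 0.01 ± 0.10 did not pass (limma, adjusted p = 0.942).

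The U2 proteins, 11 in number, went both ways in polysomal RNA: 3 rose, 3 fell and 5 did not pass. Sf3b1, the SF3b scaffold that holds the branch point helix, read 11.15, 11.25 and 11.22 in polysomal control and 12.02, 11.99 and 12.02 in polysomal 4EGI-1 arrays. In cytoplasmic RNA it read 12.19, 12.13 and 12.02 in control and 12.22, 12.21 and 12.24 with 4EGI-1. Both pairs of groups were apart, with a gap far wider in polysomal RNA. Sf3b1 rose by 0.81 ± 0.07 in polysomal RNA, or 1.75-fold (limma, adjusted p = 1.65e-06), while the cytoplasmic change of 0.11 ± 0.07 did not pass (limma, adjusted p = 0.336).

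Sf3b3, a structural subunit of the same complex, read 9.90, 10.02 and 10.08 in polysomal control and 10.74, 10.75 and 10.81 in polysomal 4EGI-1 arrays. These groups did not overlap. Its cytoplasmic values, 11.09, 11.02 and 10.80 in control and 10.91, 10.89 and 10.92 with 4EGI-1, did overlap. The changes were 0.76 ± 0.09 in polysomal RNA (limma, adjusted p = 1.18e-05) and -0.06 ± 0.09 in cytoplasmic RNA (limma, adjusted p = 0.659). Sf3a1, an SF3a subunit, read 9.51, 9.60 and 9.62 in polysomal control and 10.36, 10.25 and 10.26 in polysomal 4EGI-1 arrays. Its cytoplasmic readings were 10.00, 9.96 and 9.98 in control and 10.09, 9.92 and 10.16 with 4EGI-1, which overlapped, unlike the polysomal ones. Sf3a1 rose by 0.71 ± 0.08 in polysomal RNA (limma, adjusted p = 1.17e-05), and its cytoplasmic change was 0.08 ± 0.08 (limma, adjusted p = 0.552).

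Sf3b5 and Sf3b6 moved the other way. Sf3b5, an SF3b subunit, read 9.42, 9.63 and 9.51 in polysomal control and 9.10, 9.16 and 9.17 in polysomal 4EGI-1 arrays, with no overlap. Its cytoplasmic values of 8.68, 8.90 and 8.85 in control and 9.09, 8.89 and 8.85 with 4EGI-1 overlapped. In polysomal RNA Sf3b5 changed by -0.38 ± 0.09 (limma, adjusted p = 0.00616), and in cytoplasmic RNA by 0.14 ± 0.09 (limma, adjusted p = 0.344).

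Sf3b6, which lies next to the branch point, read 9.82, 9.71 and 9.79 in polysomal control and 9.32, 9.31 and 9.21 in polysomal 4EGI-1 arrays. Its groups did not overlap, and it fell by 0.49 ± 0.08 (limma, adjusted p = 0.000408). Snrpa1, a U2-specific protein, fell by 0.26 ± 0.09 (limma, adjusted p = 0.0403), a call lost without cytoplasmic 4EGI-1 array 1, polysomal control array 1 or 2, or any polysomal 4EGI-1 array (adjusted p from 0.0517 to 0.192) and with no filter on dim genes (0.0740). The changes of the SF3b subunits Sf3b2 (0.23 ± 0.10) and Sf3b4 (0.07 ± 0.12), the SF3a subunits Sf3a2 (0.06 ± 0.09) and Sf3a3 (0.14 ± 0.07) and the U2 protein gene Snrpb2 (-0.17 ± 0.11) did not pass.

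**Figure D2:**
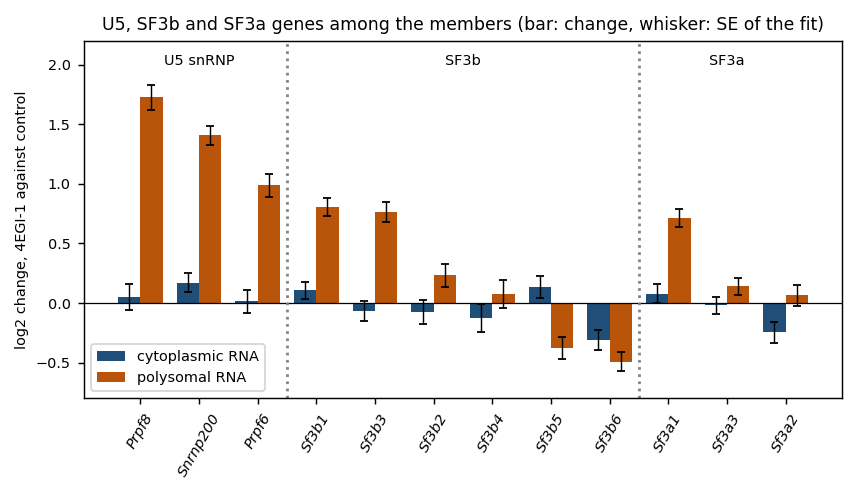
Log2 change with 4EGI-1 (y axis) of the members that belong to U5, SF3b and SF3a in cytoplasmic RNA (blue bars) and polysomal RNA (orange bars), with the SE of the limma fit as whiskers. Polysomal bars of the 3 U5 members stand between 0.99 and 1.72, while those of the SF3b members run from 0.81 for Sf3b1 to -0.49 for Sf3b6.

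Among the U2AF genes, U2af1, the subunit that reads the AG at the intron's end, read 11.14, 11.11 and 11.27 in polysomal control and 11.66, 11.83 and 11.61 in polysomal 4EGI-1 arrays. The groups did not overlap, and the change was 0.53 ± 0.10 (limma, adjusted p = 0.000844). The gene's other probe set went the other way (-0.16), and with the mean of both the change was 0.18 (limma, adjusted p = 0.101), so the call rests on 1 probe set. U2af2, the subunit that reads the polypyrimidine tract, changed by -0.11 ± 0.10 and U2af1l4 by -0.19 ± 0.12, and neither passed.

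Of the 7 U4/U6 and tri-snRNP genes, Prpf3 rose and Snrnp27 and Prpf38a fell. Snrnp27, a tri-snRNP protein, read 10.74, 10.70 and 10.86 in polysomal control and 10.21, 10.20 and 10.08 in polysomal 4EGI-1 arrays. Cytoplasmic readings were 10.12, 10.25 and 10.32 in control and 10.20, 9.94 and 10.12 with 4EGI-1. The polysomal groups were apart and the cytoplasmic ones overlapped. The polysomal change was -0.60 ± 0.09 (limma, adjusted p = 0.000146), and the cytoplasmic change of -0.14 ± 0.09 did not pass (limma, adjusted p = 0.295).

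Prpf3, which binds the U4/U6 duplex, rose by 0.25 ± 0.07 (limma, adjusted p = 0.0185; adjusted p from 0.0696 to 0.083 without polysomal control array 1 or 2 or polysomal 4EGI-1 array 3). Prpf38a, needed for activation of the spliceosome, fell by 0.34 ± 0.11 (limma, adjusted p = 0.0319; from 0.0502 to 0.136 without any 1 of the 6 polysomal arrays, and 0.0577 with no filter). Prpf31 (-0.05 ± 0.09), Prpf4b (-0.22 ± 0.13), Prpf38b (0.08 ± 0.08) and Prpf4 (0.20 ± 0.09) did not pass. Neither did any of the 5 U1 genes, whose polysomal changes ran from -0.26 for Snrpc to 0.12 for Snrnp70; 1 of them, Snrpc, had an unadjusted limma p under 0.05.

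Sm and LSm ring genes made up 10 of the 17 that fell. In polysomal RNA 4 of 6 Sm genes and 6 of 8 LSm genes fell and 0 rose. At an unadjusted limma p under 0.05, 5 Sm and 6 LSm genes fell and again 0 rose. Lsm7 read 9.72, 9.99 and 10.06 in polysomal control and 9.07, 9.19 and 9.17 in polysomal 4EGI-1 arrays. Its cytoplasmic arrays read 9.07, 9.48 and 9.29 in control and 9.14, 9.17 and 8.87 with 4EGI-1. Only the polysomal groups were apart. Lsm7, a component of both LSm rings, changed by -0.78 ± 0.12 in polysomal RNA, to 0.581 of the control level (limma, adjusted p = 0.000172), and by -0.22 ± 0.12 in cytoplasmic RNA (limma, adjusted p = 0.221).

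Snrpe, the Sm protein E, read 10.98, 10.96 and 11.14 in polysomal control and 10.37, 10.45 and 10.29 in polysomal 4EGI-1 arrays, against 10.35, 10.83 and 10.40 in cytoplasmic control and 10.53, 10.68 and 10.24 in cytoplasmic 4EGI-1 arrays. The polysomal groups did not overlap, and the cytoplasmic groups did, with control array 2 the highest. Its polysomal change was -0.66 ± 0.13 (limma, adjusted p = 0.00141), beside -0.04 ± 0.13 in cytoplasmic RNA (limma, adjusted p = 0.86).

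The other Sm genes that fell were Snrpd1 (-0.52 ± 0.09), Snrpd2 (-0.50 ± 0.08, with -0.73 to -0.28 over its 5 probe sets) and Snrpg (-0.26 ± 0.08; limma, adjusted p = 0.0187, and from 0.0603 to 0.0733 without polysomal control array 2 or 3 or polysomal 4EGI-1 array 1 or 3, and 0.0664 with quantile normalization). Snrpd3 (-0.32 ± 0.12) and Snrpb (-0.17 ± 0.10) did not pass. The LSm genes that fell besides Lsm7 and Lsm3 were Lsm6 (-0.53 ± 0.13), Lsm8 (-0.50 ± 0.12), which marks the nuclear ring on U6, Lsm2 (-0.49 ± 0.13) and Lsm4 (-0.36 ± 0.08). For Lsm6 a further probe set read 0.22, and with the mean of all 3 the change was -0.26 and did not pass (limma, adjusted p = 0.12). Lsm5 (-0.31 ± 0.18; limma, adjusted p = 0.25) and Lsm1, which marks the cytoplasmic mRNA decay ring (0.17 ± 0.11; limma, adjusted p = 0.315), did not pass.

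Of the 5 other LSm genes, Lsm14a, a component of processing bodies, fell by 0.26 ± 0.08 (limma, adjusted p = 0.0325, and from 0.064 to 0.105 without any 1 of the 6 polysomal arrays, 0.0616 with no filter and 0.0781 with arrays centred on their medians). The remaining 4, of which Lsm10 and Lsm11 belong to the U7 snRNP of histone mRNA processing, had changes from -0.21 for Lsm14b to 0.10 for Lsm11 that did not pass. In the minor spliceosome, which removes a rare class of introns, the U11/U12 gene Snrnp25 fell by 0.54 ± 0.10 (limma, adjusted p = 0.000844), and Snrnp35 (-0.07 ± 0.11) did not pass. Prpf19, a ubiquitin ligase of the spliceosome, and Prpf18, a factor of the second splicing step, changed by 0.12 ± 0.09 and -0.20 ± 0.11, and neither passed.

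Cytoplasmic RNA asks whether the members' RNA levels changed. Few did: 2 rose, Snrnp48 and Prpf4, 4 fell, Lsm3, Lsm2, Snrpd3 and Sf3b6, and 47 did not pass, where 17.8% of all genes passed (10.1% rose and 7.79% fell). The median member changed by -0.06, against -0.03 over all genes. Of the 3 U5 members 0 passed, and 1, Snrnp200, had an unadjusted limma p under 0.05.

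Snrnp48, a U11/U12 protein, read 9.32, 9.29 and 9.46 in cytoplasmic control and 9.81, 9.66 and 9.81 in cytoplasmic 4EGI-1 arrays. Its polysomal values were 9.46, 9.49 and 9.43 in control and 9.84, 9.67 and 9.75 with 4EGI-1. Both pairs were apart. The cytoplasmic rise was 0.40 ± 0.08 (limma, adjusted p = 0.00262), and the polysomal rise 0.30 ± 0.08 (limma, adjusted p = 0.0127; 0.0512 without polysomal control array 3 and 0.0658 without polysomal 4EGI-1 array 1).

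Prpf4, a partner of Prpf3 on U4/U6, read 10.10, 10.18 and 9.95 in cytoplasmic control and 10.46, 10.32 and 10.49 in cytoplasmic 4EGI-1 arrays, which did not overlap. It rose by 0.34 ± 0.09 (limma, adjusted p = 0.0116; 0.0502 without cytoplasmic 4EGI-1 array 1). In polysomal RNA its arrays read 10.28, 10.10 and 10.09 in control and 10.36, 10.30 and 10.42 with 4EGI-1. These were apart by little, and the change did not pass (limma, adjusted p = 0.107).

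Sf3b6 read 8.47, 8.64 and 8.72 in cytoplasmic control and 8.27, 8.27 and 8.36 in cytoplasmic 4EGI-1 arrays, with no overlap. It fell by 0.31 ± 0.08 (limma, adjusted p = 0.0153; from 0.0507 to 0.0584 without cytoplasmic control array 3 or cytoplasmic 4EGI-1 array 1 or 2). Lsm3, a component of both LSm rings, read 10.28, 10.70 and 10.44 in cytoplasmic control and 10.23, 10.21 and 9.73 in cytoplasmic 4EGI-1 arrays, narrowly apart. The lowest value was 4EGI-1 array 3 and the highest control array 2. Lsm3 changed by -0.42 ± 0.14 in cytoplasmic RNA (limma, adjusted p = 0.0493; from 0.0532 to 0.155 without cytoplasmic control array 2 or 3, cytoplasmic 4EGI-1 array 3 or any 1 of the 6 polysomal arrays). The change was -0.25 without cytoplasmic 4EGI-1 array 3 and -0.14 with array weights (limma, adjusted p = 0.288), and the call was also lost with no filter (0.0835) and with quantile normalization (0.0657). In polysomal RNA it read 11.08, 11.29 and 11.30 in control and 10.47, 10.71 and 10.44 with 4EGI-1, groups apart, and changed by -0.69 ± 0.14 (limma, adjusted p = 0.00174).

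Lsm2 read 9.07, 8.90 and 9.45 in cytoplasmic control and 8.67, 8.58 and 8.93 in cytoplasmic 4EGI-1 arrays, and Snrpd3, the Sm protein D3, read 10.76, 11.09 and 11.27 in the former and 10.76, 10.75 and 10.49 in the latter. In both genes the groups overlapped. Lsm2 changed by -0.41 ± 0.13 (limma, adjusted p = 0.0346; from 0.0581 to 0.145 without cytoplasmic control array 1 or 3 or cytoplasmic 4EGI-1 array 1 or 2). The change was -0.26 without cytoplasmic control array 3, and the call was also lost with no filter (0.0613) and with centring (0.0560). Snrpd3 changed by -0.37 ± 0.12 (limma, adjusted p = 0.0435; from 0.0526 to 0.176 without any 1 array other than cytoplasmic control array 1 and polysomal 4EGI-1 array 2). With array weights its change was -0.10 (limma, adjusted p = 0.403), and with no filter it did not pass (0.0759). Fitted on the 6 cytoplasmic arrays alone, Prpf4, Sf3b6, Lsm2, Lsm3 and Snrpd3 did not pass (limma, adjusted p = 0.0694, 0.0946, 0.133, 0.146 and 0.148). Of the 6 cytoplasmic calls, that of Snrnp48 was the 1 that held under every alternative run. The number that rose was 4 without cytoplasmic control array 2 or 4EGI-1 array 3 and 1 without 4EGI-1 array 1. The number that fell was 0 without cytoplasmic control array 3 (5 with an unadjusted limma p under 0.05), 1 without 4EGI-1 array 2, and 2 without 4EGI-1 array 1, any polysomal control array, or polysomal 4EGI-1 array 1 or 3.

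The difference of effects, the polysomal change minus the cytoplasmic change, asks which members moved on polysomes beyond their change in level. In this test 6 members rose, 1 fell and 46 did not pass, where 2.92% of all genes passed (2.31% rose and 0.607% fell). The 6 were Prpf8 (1.67 ± 0.15), Snrnp200 (1.23 ± 0.11), Prpf6 (0.97 ± 0.14), Sf3b3 (0.83 ± 0.12), Sf3b1 (0.70 ± 0.10) and Sf3a1 (0.64 ± 0.11), with limma adjusted p-values from 5.12e-05 to 0.00522. The value of Prpf8 was the highest of the 13180 genes tested, that of Snrnp200 ranked 9 and that of Prpf6 ranked 43 from the top.

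Sf3b5 was the member that fell, with a difference of -0.51 ± 0.13 (limma, adjusted p = 0.0449). Its call was lost without any 1 array other than cytoplasmic control array 2 and cytoplasmic 4EGI-1 array 3 (adjusted p from 0.0519 to 0.146), and without either of those 5 members fell. Without cytoplasmic 4EGI-1 array 2 the count was 1, a gene other than Sf3b5, and without any of the 9 remaining arrays it was 0 (8 to 11 with an unadjusted limma p under 0.05). With no filter, centring or quantile normalization Sf3b5 did not pass either (0.0960, 0.0617 and 0.0565). Lsm5 (-0.71 ± 0.26), Snrpe (-0.61 ± 0.18), Lsm7 (-0.56 ± 0.17) and Lsm6 (-0.52 ± 0.18) had lower values that did not pass (limma, adjusted p = 0.196, 0.101, 0.0995 and 0.177). A further probe set of Lsm6 read 0.37.

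**Figure D3:**
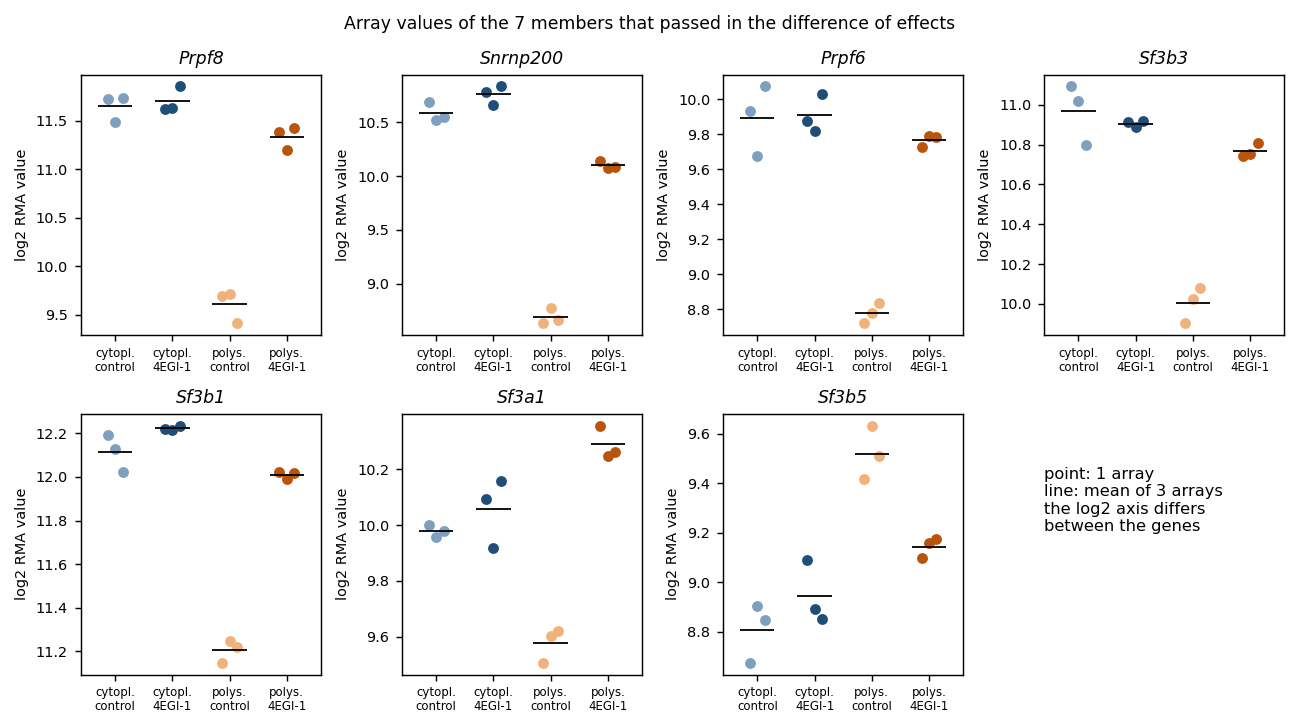
Deposited log2 values (y axis, a scale of its own for each gene) of the 7 members that passed in the difference of effects, with 1 point per array and a line at the mean of 3 arrays in each of the 4 groups. In 6 genes the polysomal control arrays are the lowest, as in Prpf8 (9.41 to 9.72), and in Sf3b5 they are the highest (9.42 to 9.63).

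Polysomal against cytoplasmic RNA within 1 treatment shows which members are over- or under-represented on polysomes relative to the other genes. In control cells 18 members were higher and 11 lower in polysomal RNA, and 24 did not pass (limma), where 29% of all genes passed (16.7% higher and 12.2% lower). This comparison shares the polysomal control arrays with the polysomal treatment effect and the difference of effects, so the same 3 arrays enter all of these values. The median member differed by 0.13, against -0.02 over all genes.

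The 3 members lowest on polysomes in control cells were the 3 U5 members. The difference was -2.04 ± 0.11 for Prpf8, a level 0.243 times that in cytoplasmic RNA (limma, adjusted p = 1.79e-08), and -1.90 ± 0.08 for Snrnp200, 0.269 times (limma, adjusted p = 3.4e-09). These ranked 7 and 11 from the bottom of the 13180 genes. Prpf6 (-1.11 ± 0.10), Sf3b3 (-0.97 ± 0.09), Sf3b1 (-0.91 ± 0.07) and Sf3a1 (-0.40 ± 0.08) were lower as well, with limma adjusted p-values from 6.22e-07 to 0.0014. So were Lsm1 (-0.59 ± 0.11), U2af1 (-0.51 ± 0.10), Lsm12 (-0.35 ± 0.09), the U1-associated Prpf40b (-0.34 ± 0.09) and Prpf3 (-0.28 ± 0.07). With arrays centred on their medians, Lsm12, Prpf40b and Prpf3 did not pass (limma, adjusted p = 0.0662, 0.0790 and 0.0613), and with the mean of its probe sets U2af1 did not (-0.09; 0.426).

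The polysomal control values of Sf3b6, given above, all lay over its cytoplasmic control values, and its difference was the highest of the members, 1.16 ± 0.08 or 2.24-fold (limma, adjusted p = 1.85e-07). Lsm5 read 9.19, 9.84 and 9.07 in cytoplasmic and 10.14, 10.23 and 10.14 in polysomal control arrays, and 9.92, 10.04 and 9.36 in cytoplasmic and 9.79, 9.98 and 9.81 in polysomal 4EGI-1 arrays. In control cells its groups were apart and with 4EGI-1 they overlapped. Its difference in control cells was 0.80 ± 0.18 (limma, adjusted p = 0.0037).

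Snrpa1 read 10.30, 10.46 and 10.48 in cytoplasmic and 11.27, 11.07 and 11.05 in polysomal control arrays, which were apart, and differed by 0.72 ± 0.09 (limma, adjusted p = 2.99e-05). Lsm3 (0.75 ± 0.14), Sf3b5 (0.71 ± 0.09), Lsm7 (0.64 ± 0.12), Snrpb2 (0.63 ± 0.11), Snrpd1 (0.62 ± 0.09) and Lsm6 (0.60 ± 0.13) were higher as well. The remaining 9 that were higher ran from 0.32 for Snrpd2 to 0.56 for Prpf38a. Among them, Sf3b4 lost its call without cytoplasmic control array 2 (adjusted p = 0.0536) or polysomal control array 1 (0.0526), and Prpf39, a U1-associated protein, without cytoplasmic control array 3 (0.34 in place of 0.52; adjusted p = 0.0530). With the mean of their probe sets Lsm6, Sf3b4 and Snrpd2 differed by 0.10, 0.23 and 0.25 and did not pass (limma, adjusted p = 0.568, 0.126 and 0.167).

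**Figure D4:**
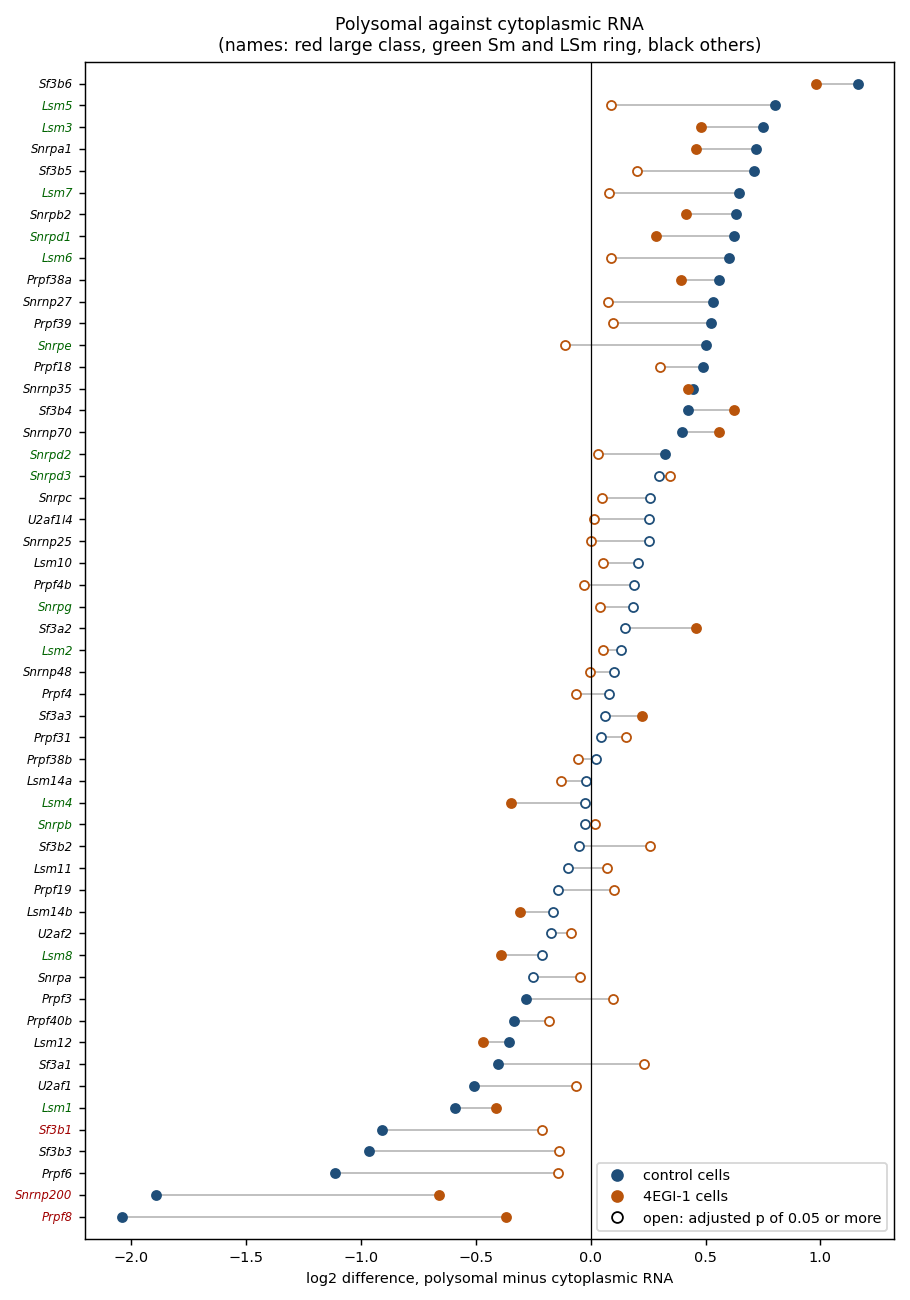
Polysomal minus cytoplasmic RNA (x axis, log2 difference) of each of the 53 members in control cells (blue) and in 4EGI-1 cells (orange), ordered by the value in control cells; filled points passed at an adjusted p under 0.05. In control cells values run from -2.04 for Prpf8 to 1.16 for Sf3b6, and in 4EGI-1 cells from -0.66 for Snrnp200 to 0.98 for Sf3b6.

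In 4EGI-1 cells 11 members were higher and 7 lower in polysomal RNA and 35 did not pass, where 16.7% of all genes passed (9.56% higher and 7.15% lower). Snrnp200 remained lower (-0.66 ± 0.08; limma, adjusted p = 0.000125). Prpf8 differed by -0.37 ± 0.11 (limma, adjusted p = 0.0305; from 0.0512 to 0.122 without cytoplasmic 4EGI-1 array 3 or any polysomal 4EGI-1 array, 0.0559 with no filter and 0.137 with centring). Prpf6 (-0.14 ± 0.10), Sf3b3 (-0.14 ± 0.09) and Sf3b1 (-0.21 ± 0.07; limma, adjusted p = 0.0543) did not pass. Sf3b1 did pass without cytoplasmic control array 3 (limma, adjusted p = 0.0331), with the 60th percentile filter (0.0358), with a trend and robust eBayes (0.0133) and with array weights (0.00725).

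Lsm12 read 11.20, 11.16 and 11.40 in cytoplasmic and 10.83, 10.84 and 10.67 in polysomal 4EGI-1 arrays, and 11.34, 11.23 and 11.44 in cytoplasmic and 10.89, 11.06 and 10.99 in polysomal control arrays. Its polysomal values were lower, without overlap, in both treatments, by 0.35 ± 0.09 in control cells and by 0.47 ± 0.09 with 4EGI-1 (limma, adjusted p = 0.00825 and 0.00345). Lsm1 read 8.73, 8.31 and 8.73 in cytoplasmic and 8.25, 8.22 and 8.07 in polysomal 4EGI-1 arrays, and 8.62, 8.48 and 8.70 in cytoplasmic and 7.86, 8.11 and 8.05 in polysomal control arrays, with no overlap between the fractions. Its difference was -0.41 ± 0.11 with 4EGI-1 (limma, adjusted p = 0.0238; from 0.0548 to 0.0987 without array 1 or 3 of either 4EGI-1 group).

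Lsm8 read 10.46, 10.41 and 10.66 in cytoplasmic and 10.09, 10.24 and 10.03 in polysomal 4EGI-1 arrays, and 10.72, 10.64 and 11.12 in cytoplasmic and 10.51, 10.64 and 10.71 in polysomal control arrays. The fractions were apart with 4EGI-1 and overlapped in control cells. It differed by -0.39 ± 0.12 with 4EGI-1 (limma, adjusted p = 0.0344; from 0.0606 to 0.123 without array 1 or 3 of either 4EGI-1 group). Lsm4 (-0.35 ± 0.08; 0.0517 without polysomal 4EGI-1 array 1) and Lsm14b (-0.31 ± 0.10; 0.0529 to 0.142 without array 1 or 2 of cytoplasmic 4EGI-1, array 1 or 3 of polysomal control or any polysomal 4EGI-1 array) were the others called lower. With centring Lsm1, Lsm4, Lsm8 and Lsm14b did not pass (limma, adjusted p = 0.100, 0.0716, 0.148 and 0.173). Lsm8 and Lsm14b also did not pass with no filter (limma, adjusted p = 0.0617 and 0.0684).

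Among those higher, Sf3b6 again led, its polysomal 4EGI-1 values all above its cytoplasmic 4EGI-1 values, with a difference of 0.98 ± 0.08, rank 5 from the top of 13180 genes (limma, adjusted p = 4.41e-06). Sf3b4, a subunit that contacts the pre-mRNA near the branch point, read 7.95, 7.85 and 8.20 in cytoplasmic and 8.61, 8.53 and 8.72 in polysomal 4EGI-1 arrays, and 8.11, 7.89 and 8.38 in cytoplasmic and 8.59, 8.48 and 8.57 in polysomal control arrays. The fractions did not overlap in either treatment. Its difference was 0.62 ± 0.12 with 4EGI-1 (limma, adjusted p = 0.00295) and 0.42 ± 0.12 in control cells (limma, adjusted p = 0.0135).

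Snrnp70, a U1 protein that binds U1 RNA directly, read 10.65, 10.60 and 10.52 in cytoplasmic and 11.10, 11.12 and 11.23 in polysomal 4EGI-1 arrays. It read 10.52, 10.67 and 10.72 in cytoplasmic and 11.03, 11.04 and 11.02 in polysomal control arrays. Polysomal values were higher without overlap in both treatments, by 0.56 ± 0.08 with 4EGI-1 (limma, adjusted p = 0.000375) and by 0.40 ± 0.08 in control cells (limma, adjusted p = 0.00126). Lsm3 (0.48 ± 0.14), Snrpa1 (0.46 ± 0.09), Sf3a2 (0.46 ± 0.09), Snrnp35 (0.43 ± 0.11), Snrpb2 (0.41 ± 0.11), Prpf38a (0.39 ± 0.11), Snrpd1 (0.28 ± 0.09) and Sf3a3 (0.22 ± 0.07) were the others. Of these, Lsm3, Prpf38a and Snrpb2 lost the call without cytoplasmic 4EGI-1 array 3 or any polysomal 4EGI-1 array (limma, adjusted p from 0.0515 to 0.110; Lsm3 differed by 0.32 without that cytoplasmic array), and Snrnp35 without cytoplasmic 4EGI-1 array 2 or polysomal 4EGI-1 array 3 (0.0571 to 0.0715). Snrpd1 lost it without any polysomal array or cytoplasmic 4EGI-1 array 1 or 3 (0.0618 to 0.149), and Sf3a3 without any polysomal or cytoplasmic 4EGI-1 array (0.0542 to 0.154). With no filter Lsm3, Snrpd1 and Sf3a3 did not pass (0.0503, 0.0807 and 0.0792), nor did they with quantile normalization (0.0516, 0.0512 and 0.0594). Fitted on the arrays compared alone, Snrpd1 and Sf3a3 did not pass (0.0575 and 0.0766). The number called higher was 6, 6 and 5 without polysomal 4EGI-1 array 1, 2 or 3. The number called lower was 4 without cytoplasmic 4EGI-1 array 1 or 3, and 2 and 3 without polysomal 4EGI-1 array 1 or 3.

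The large members Prpf8, Snrnp200 and Sf3b1 were set against the 14 small Sm and LSm ring genes by the mean of each class in each array, relative to the cytoplasmic control mean. These are descriptions, with no test. Protein lengths were not computed, so a relation to size over the other genes was not tested. The large class lay at -1.62, -1.54 and -1.68 in the polysomal control arrays and at -0.27, -0.36 and -0.28 in the polysomal 4EGI-1 arrays. The small class lay at 0.21, 0.32 and 0.32 in polysomal control and at -0.16, -0.09 and -0.16 in polysomal 4EGI-1. On polysomes the classes were far apart in control cells and near each other with 4EGI-1.

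In the cytoplasmic arrays both classes stayed close to 0. The large class read 0.09, -0.07 and -0.02 in control and 0.09, 0.05 and 0.19 with 4EGI-1, and the small class -0.12, 0.06 and 0.05 in control and -0.10, -0.13 and -0.24 with 4EGI-1. Large minus small was 0.00 ± 0.18 (SD, n = 3) in the cytoplasmic control arrays and 0.27 ± 0.14 with 4EGI-1. On polysomes it was -1.90 ± 0.09 without and -0.17 ± 0.09 with 4EGI-1. The change with 4EGI-1 in large minus small was 1.74 in polysomal RNA and 0.27 in cytoplasmic RNA, against an SD of 0.131 pooled within groups. It was 1.72 and 0.30 with the Sm genes alone as the small class.

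Within the classes the spread was wide. Polysomal changes of the large class ran from 0.81 for Sf3b1 to 1.72 for Prpf8, and those of the small class from -0.78 for Lsm7 to 0.17 for Lsm1. Of the small class, 10 of 14 fell in polysomal RNA and 0 rose (limma), where 12.1% of all genes fell. The 4 others were Lsm1, Lsm5, Snrpb and Snrpd3. In cytoplasmic RNA 3 of 14 fell, where 7.79% of all genes did. In the difference of effects all 3 large members rose, whereas 0 of the 14 small ones passed (limma), with 7 falling at an unadjusted p under 0.05. Over all genes 2.31% rose and 0.607% fell in that test. The mean change of the small class was -0.42 in polysomal and -0.16 in cytoplasmic RNA. In control cells 7 of 14 were higher on polysomes and 1, Lsm1, was lower, against 16.7% and 12.2% of all genes. The 36 members outside both classes had 6 that rose and 7 that fell in polysomal RNA, against 13% and 12.1% of all genes.

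**Figure D5:**
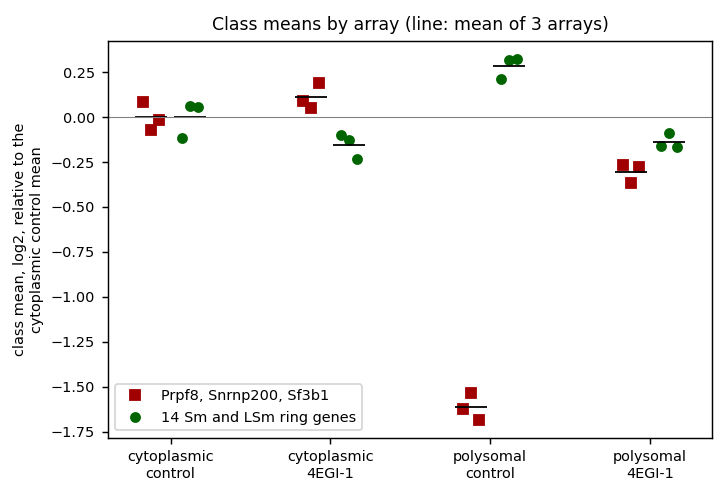
Class means (y axis, log2 relative to the cytoplasmic control mean) of Prpf8, Snrnp200 and Sf3b1 (red squares) and of the 14 Sm and LSm ring genes (green circles) in each of the 12 arrays, with a line at the mean of 3 arrays. On polysomes the large class lies at -1.62 without and -0.30 with 4EGI-1, and the small class at 0.29 and -0.14.

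Other genes of the pathway were taken from lists of further spliceosome, splicing regulator and snRNP assembly genes, of which 114 of 123 were tested. In polysomal RNA 19 rose and 16 fell, with a median change of 0.01, and in cytoplasmic RNA 6 rose and 10 fell. Over all genes 13% rose and 12.1% fell in polysomal RNA, shares near those of these lists, and 10.1% rose and 7.79% fell in cytoplasmic RNA. In the difference of effects 6 rose and 1 fell, against 2.31% and 0.607% of all genes. The U5 GTPase gene Eftud2, whose protein binds PRPF8, had a difference of 0.63 ± 0.12 (limma, adjusted p = 0.00846). The SF3b subunit gene Phf5a had a difference of -0.54 ± 0.11 (limma, adjusted p = 0.0168) and a polysomal change of -0.54 ± 0.08 (limma, adjusted p = 0.000163).

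Genes of the Prp19 complex and its partners, which act at spliceosome activation, showed 7 that rose and 3 that fell among 19 in polysomal RNA. The shares over all genes were 13% and 12.1%. Aqr, a helicase, rose by 0.85 ± 0.09, Xab2 by 0.73 ± 0.09 and Cwc22 by 0.61 ± 0.08 (limma, adjusted p from 1.18e-05 to 3.67e-05). In the difference of effects Aqr (0.94 ± 0.13), Cdc5l (0.85 ± 0.16) and Xab2 (0.60 ± 0.13) passed (limma, adjusted p from 0.000958 to 0.0204).

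Among 14 SR and related genes, 3 rose and 5 fell in polysomal RNA, against 13% and 12.1% of all genes. Srrm2, an SR-related protein, rose by 0.66 ± 0.10 (limma, adjusted p = 0.000219), with a difference of effects of 0.76 ± 0.14 (limma, adjusted p = 0.00836). The splicing regulators Srsf6 and Srsf1 fell by 0.67 ± 0.08 and 0.61 ± 0.07 in polysomal RNA, and by 0.46 ± 0.08 and 0.38 ± 0.07 in cytoplasmic RNA (limma, adjusted p from 1.98e-05 to 0.00198). Srsf9 fell by 0.68 ± 0.12 in the polysomal (limma, adjusted p = 0.000518) and by 0.89 ± 0.12 in the cytoplasmic fraction (limma, adjusted p = 9.85e-05).

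Of 14 genes of the SMN complex and Sm assembly, which load Sm rings onto small nuclear RNA, 2 rose and 1 fell in polysomal RNA. For this list and those that follow, the shares over all genes were 13% rising and 12.1% falling. Gemin5, which binds the small nuclear RNA, rose by 0.52 ± 0.13 in polysomal RNA (limma, adjusted p = 0.0061). In the cytoplasmic fraction it fell by 0.42 ± 0.13 (limma, adjusted p = 0.0316). Ddx20 rose by 0.36 ± 0.08 and Wdr77 fell by 0.37 ± 0.09 in polysomal RNA (limma, adjusted p = 0.00282 and 0.006). Of 21 hnRNP genes 0 rose (limma; 1 at an unadjusted p under 0.05) and 2 fell in polysomal RNA, Pcbp2 and Hnrnpll, both by 0.42 ± 0.08. The 21 further proteins of U1, U2 and the tri-snRNP had 4 that rose, among them U2surp (0.52 ± 0.09) and Sugp1 (0.40 ± 0.07), and 4 that fell. Of the 13 helicases Ddx42 (0.36 ± 0.08) and Dhx38 (0.30 ± 0.09) rose. Ddx23, a helicase of U5, fell by 0.24 ± 0.07 (limma, adjusted p = 0.0261). The 7 exon junction genes had 1 that rose and 0 that fell (1 falling at an unadjusted limma p under 0.05). The 5 further U11/U12 genes had 0 and 0, with or without adjustment.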

How the data were processed

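Polysomal and reference RNA of control and 4EGI-1 cells was measured on 12 arrays, 3 in each of 4 groups taken from the labels. The deposited values are on the log2 scale for 34760 probe sets, summarised from probes by the authors with RMA, as the submitters' processing notes name it (version not given in the sources used here). Names came from the platform annotation, which can be old: 21640 had 1 symbol, 1321 several and 11799 none. By Entrez number, 19855 of 19937 genes were matched to RefSeq's GRCm38.p6 table and took its symbol, whether or not it differed. The highest-mean probe set stood for each gene, which for 8 members chose among several. The 6757 genes whose mean lay under 6.003, the 40th percentile of probe sets, were left out.

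Group means of 13180 genes over all arrays were fitted with limma 3.58.1 in R 4.3.3 (lmFit, eBayes without a trend; prior of 6.83 degrees of freedom and SD 0.117), and 5 comparisons were tested with Benjamini-Hochberg adjustment over all these genes at 0.05. The scripts were tested on simulated data. A gene's level cannot be set against another's, and precision is limited by the number of arrays.

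The members and lists were chosen with earlier results of these data known. Array values are given for Prpf8, Snrnp200, Sf3b1, the members that passed in the difference of effects, and up to 4 members with the largest change each way per comparison. They are also given for U2af1, added after its values were seen because its probe sets disagree. Other pathway genes named were drawn from the up to 3 with the smallest p per list and treatment comparison, not all of which are named. Alternatives were the replicate block, probe set averaging, the filter, quantile normalization, median centring, a trend with robust eBayes, array weights, fits on the arrays compared alone, the Sm genes alone as small class, and leaving out each array.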

Additional observations from a re-analysis of the deposited data

Results flagged for a closer look

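The members for which the effect of 4EGI-1 differed between polysomal and cytoplasmic RNA, by limma's test of the difference, merit a closer look. The difference (log2, polysomal minus cytoplasmic effect) was 1.67 for Prpf8, 1.23 for Snrnp200, 0.97 for Prpf6, 0.83 for Sf3b3, 0.70 for Sf3b1 and 0.64 for Sf3a1. It was -0.51 for Sf3b5, the call that most single arrays left out would end. All 7 values use the same polysomal control arrays.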

How the results depend on the processing

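Calls that held under every alternative run were 1 of 6 in cytoplasmic RNA, 18 of 26 in polysomal RNA, 6 of 7 in the difference of effects, and 21 of 29 and 7 of 18 for polysomal against cytoplasmic RNA in control and 4EGI-1 cells. The large minus small values moved by less than the array SD under all alternatives run for them. In cytoplasmic RNA the number that fell was 1 with no filter, 8 with array weights and 0 with the cytoplasmic arrays fitted alone (6 with an unadjusted limma p under 0.05), and the number that rose was 6 with array weights and 1 fitted alone. In the difference of effects 0 fell with no filter (9 unadjusted) or with centring (10 unadjusted), 2 with the 60th percentile filter or with a trend and robust eBayes, and 17 with array weights, which also gave 10 that rose; the difference could not be fitted on the compared arrays alone. For 4EGI-1 cells 4 members were lower with no filter and 2 with centring. The cytoplasmic change of Prpf8, which did not pass, reversed to -0.0686 with array weights, to -0.0298 without cytoplasmic control array 2 and to -0.0256 without cytoplasmic 4EGI-1 array 3, within a leave-one-out range of -0.0298 to 0.093. Leaving out each array in turn gave 1 to 4 that rose and 0 to 5 that fell in cytoplasmic RNA, 0 to 5 that fell in the difference, and 5 to 12 higher and 2 to 8 lower in 4EGI-1 cells. The cause was not tested.

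Array numbers were not used as pairs in the main fit, although the design text has both fractions of a sample taken from the same cells. Same-numbered arrays did not all deviate together: r across genes was at or under 0.1 in 6 of 12 pairs of arrays. Between the fractions of 1 treatment r ran from 0.019 to 0.228. Between control and 4EGI-1 it ran from -0.055 to 0.163 in polysomal arrays. In cytoplasmic arrays it was -0.216, 0.562 and 0.516 for numbers 1, 2 and 3, so numbers 2 and 3 did deviate together there. With the replicate number as a block, 3 members rose and 7 fell in cytoplasmic RNA, 9 and 18 in polysomal RNA, 6 and 1 in the difference, 19 and 11 in control cells and 11 and 7 in 4EGI-1 cells.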
